A study of Mus musculus with 9 samples.

Results

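Myeloid lineage genes in mouse embryonic fibroblasts (MEFs) sorted by their level of MYC were described from RNA-seq values, and the chromatin around their start sites from accessibility reads of unsorted MEFs. The 37 genes were listed by name, as genes known from the myeloid lineage, after their ratio between high-MYC and low-MYC cells had been seen, so no p-value of that contrast is given for them and counts of calls among them are a description only. The expression table held 35 of the 37 among its 19769 genes. Cd163 and Fgr are not analysed here. MEFs are primary, early-passage cells grown out of embryos, so a culture is defined by how it grows and not by descent from a single cell.

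The RNA-seq part of the study compared cells at the ends of the MYC distribution. Cells homozygous for a Myc-Egfp fusion at the Myc locus (Myc-Egfp+/+) received the proteasome inhibitor MG-132 (20 µM for 6 h), were sorted into low-GFP (low-MYC) and high-GFP (high-MYC) cells, and were seeded overnight before RNA was taken. Both groups thus carried the fusion and the inhibitor. Each had 2 libraries, which are technical replicates. Nuclease-accessible chromatin (TACh-seq) came from MEFs that were not sorted, either wild type with non-target siRNA or Fubp1 knockout with Fubp2 siRNA (KOKD), at 100 nM for 48 h. The 4 samples are labelled with a single list of reads that has no column for the library and whose name points to a wild-type library, so which of them it holds is not known. FUBP1 ChIP-seq came from 1 sample of primary MEFs. Synthetic ERCC RNAs had been added in proportion to cell number, so the deposited spike-in-normalized FPK (fragments per kilobase) are relative to cells and not to library size.

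Myeloid cells, among them monocytes, macrophages and granulocytes, descend from haematopoietic progenitors under the ETS-family factor PU.1, encoded by Spi1, and macrophages need signals through the CSF1 receptor to survive. They are recognised by surface integrins of the CD18 family, pattern recognition receptors, lysosomal proteins and the phagocyte oxidase. Fibroblasts are mesenchymal cells that secrete collagen and CSF1 and do not use this gene set as a whole. Macrophages are also present in the embryo, where the first of them arise from the yolk sac.

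The deposited values were divided by the genomic span of each gene and by the spike-in score, which made the number of reads recoverable. Values that came to at most 10 reads lay within 0.05 of a whole number of reads in 75.2% to 76.8% of cases. Among genes with introns, the share was 82.5% to 84.7% with the genomic span and 9.70% to 10.4% with the exon length. The value of 1 read had been fitted on the genomic span, and none was fitted on the exon length. The comparison is therefore not an even test of the 2 lengths. The libraries then held 93752252 and 96323181 reads in low-MYC replicates 1 and 2, and 93488921 and 87681593 reads in high-MYC replicates 1 and 2. Myc itself had 11238, 11259, 10359 and 9252 reads in that order, a spike-in-normalized ratio of 2.07 between the groups and a ratio of read shares of 0.914. Over the 17915 genes with at least 20 reads the median ratio was 2.28, with 5% to 95% of genes between 1.61 and 4.14, and the median ratio of read shares was 1.00. Fibroblast markers took 16630, 16427, 18774 and 18213 RPM (reads scaled to a common library total) in the 4 libraries, and Lum, the gene with the fewest reads of the 13, had 1179 to 3182 reads.

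The promoters of 6 members are shown because they stand for the patterns described later: Lyz2, the member with the most reads; Vav1, without a read in low-MYC cells; Pirb and Cd53, which like Vav1 hold the longer PU.1 motif; and Cd68, Cd53 and Lcp1, which had accessible chromatin at their start. Each window runs from 250 bases before to 50 after the RefSeq start (GRCm38.p6), 5′ to 3′ on the strand of the gene. Capitals mark GAGGAA, the core of the PU.1 motif, on either strand (TTCCTC on the other), extended to GAGGAAGT (ACTTCCTC) where the longer motif is present.
Lyz2 (chr10:117282223-117282522, minus strand): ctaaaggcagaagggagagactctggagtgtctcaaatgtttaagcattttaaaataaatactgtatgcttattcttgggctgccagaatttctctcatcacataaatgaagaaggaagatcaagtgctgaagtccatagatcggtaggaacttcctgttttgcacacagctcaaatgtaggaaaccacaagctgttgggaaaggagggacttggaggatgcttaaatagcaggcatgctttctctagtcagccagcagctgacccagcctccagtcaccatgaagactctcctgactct
Vav1 (chr17:57278850-57279149, plus strand): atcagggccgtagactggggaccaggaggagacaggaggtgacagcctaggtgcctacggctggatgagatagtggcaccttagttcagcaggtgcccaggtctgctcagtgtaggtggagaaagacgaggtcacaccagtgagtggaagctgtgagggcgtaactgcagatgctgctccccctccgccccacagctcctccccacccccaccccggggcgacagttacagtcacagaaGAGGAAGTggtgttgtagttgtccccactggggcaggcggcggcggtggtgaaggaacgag
Pirb (chr7:3720333-3720632, minus strand): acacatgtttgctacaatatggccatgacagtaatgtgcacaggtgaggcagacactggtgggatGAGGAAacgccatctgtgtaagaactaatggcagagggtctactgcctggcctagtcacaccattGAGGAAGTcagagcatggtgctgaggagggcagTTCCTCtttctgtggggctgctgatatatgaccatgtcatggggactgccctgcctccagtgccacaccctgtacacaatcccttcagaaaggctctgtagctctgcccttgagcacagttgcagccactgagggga
Cd53 (chr3:106790100-106790399, minus strand): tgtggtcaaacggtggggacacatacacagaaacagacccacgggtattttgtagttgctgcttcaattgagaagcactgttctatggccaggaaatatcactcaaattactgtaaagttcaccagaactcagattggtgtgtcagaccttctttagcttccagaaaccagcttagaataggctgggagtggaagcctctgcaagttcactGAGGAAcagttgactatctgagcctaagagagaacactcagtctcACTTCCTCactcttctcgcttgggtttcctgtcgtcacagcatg
Cd68 (chr11:69666121-69666420, minus strand): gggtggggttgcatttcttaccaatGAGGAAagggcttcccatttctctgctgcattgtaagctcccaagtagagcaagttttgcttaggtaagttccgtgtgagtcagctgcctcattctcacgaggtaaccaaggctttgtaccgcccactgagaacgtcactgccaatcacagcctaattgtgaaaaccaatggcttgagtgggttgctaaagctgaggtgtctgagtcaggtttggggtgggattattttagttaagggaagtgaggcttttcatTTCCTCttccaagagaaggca
Lcp1 (chr14:75130873-75131172, plus strand): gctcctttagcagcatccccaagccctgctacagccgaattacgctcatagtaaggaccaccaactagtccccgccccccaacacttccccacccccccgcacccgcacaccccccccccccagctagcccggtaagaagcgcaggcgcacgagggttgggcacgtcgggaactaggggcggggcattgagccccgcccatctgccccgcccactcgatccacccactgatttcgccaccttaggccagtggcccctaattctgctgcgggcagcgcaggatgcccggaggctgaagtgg

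All 35 members had higher normalized FPK in both high-MYC libraries than in both low-MYC libraries, as did 95.9% of the genes with at least 20 reads, so this separation says little about the members. The size of the ratio set them apart from most genes by construction. Their median ratio of means was 73.7, from 2.54 for Clec7a to 851 for Ms4a7. A ratio of at least 5 was found for 32 members, against 3.28% of genes. It was at least 10 for 27 members and at least 100 for 17, limits at which the share of all genes was not counted. Counted as a share of all reads, without the spike-in score, the median member ratio was 32.5, and 26 members stood at 5 or more. The median over genes with at least 20 reads was then 1.00. The share of those genes at 5 or more was not counted for read shares. In limma, 55.1% of the 11870 genes that passed a filter on low values were called higher in high-MYC cells (2-fold and an adjusted p under 0.01). Of these genes 0% were called lower, with 0 genes 2-fold lower at an unadjusted p under 0.05. Only 10 of the 35 members passed the filter on low values for that fit, since a value spread over the genomic span is small for a gene with few reads. Fewer myeloid cells in a library and less of these RNAs per cell cannot be told apart in bulk RNA.

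**Figure D1:**
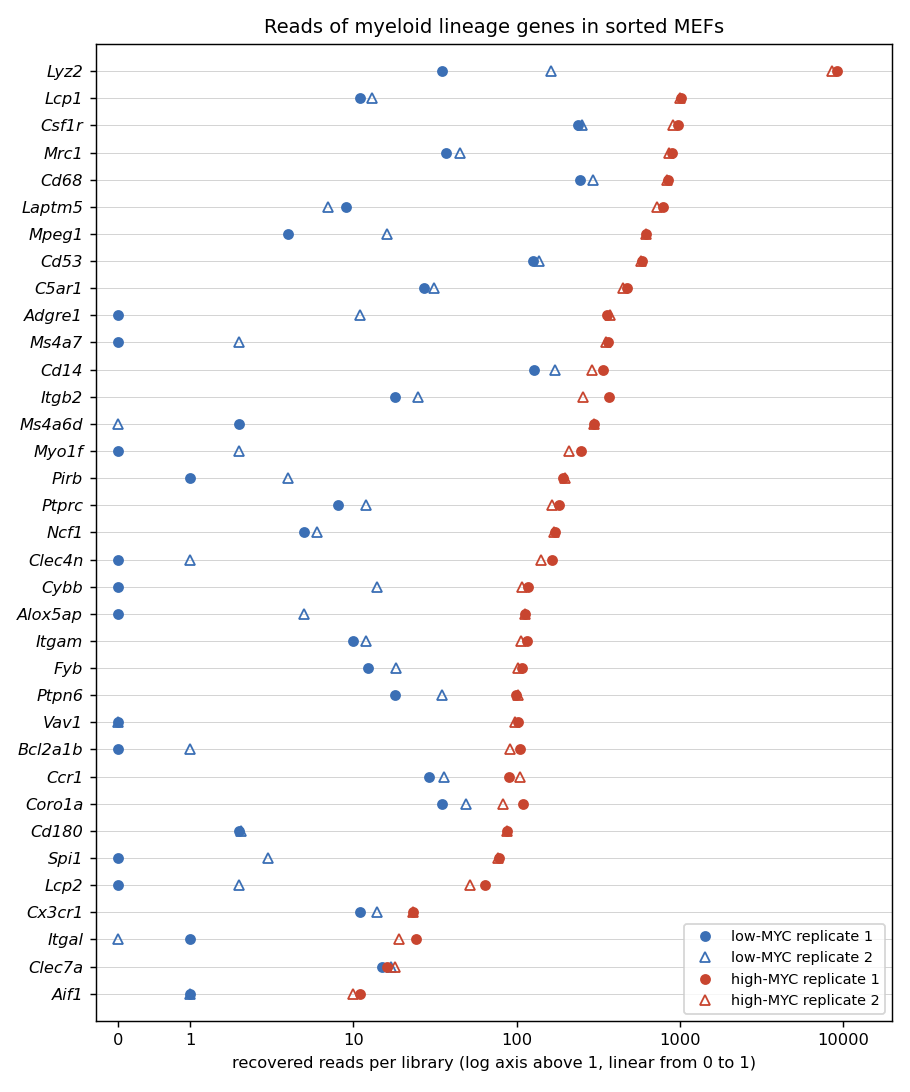
Recovered reads of the 35 members in each library (log axis above 1), ordered by their high-MYC reads. Blue symbols are the low-MYC and red symbols the high-MYC libraries, circles replicate 1 and triangles replicate 2; the high-MYC replicates lie close together, while the low-MYC values run from 0 to 294 reads.

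The lineage regulator and its growth factor receptor differed in how silent they were in low-MYC cells. Spi1, which encodes PU.1, had 0 and 3 reads in low-MYC replicates 1 and 2 and 78 and 77 reads in the high-MYC replicates, a ratio of 123 (95% counting interval 41.3 to 603). Csf1r had 237 and 251 reads in the low-MYC libraries against 973 and 904, and its ratio was 9.16 (8.28 to 10.1). Csf1r was thus read in every library, whereas Spi1 was near 0 in one group. Csf1r overlaps Hmgxb3 on the opposite strand, and its reads were not whole in any library, so these reads cannot be assigned to it alone. The intervals here and in the following paragraphs are exact binomial intervals that cover counting error only.

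The pan-leukocyte and adhesion genes had few reads in low-MYC cells. Ptprc, the CD45 phosphatase of all leukocytes, had 8 and 12 reads against 181 and 164 (ratio 41.0, interval 26.2 to 68.0). Itgb2, the beta chain shared by the leukocyte integrins, had 18 and 25 reads against 367 and 256 (ratio 34.2, 25.1 to 47.7). Itgam, the alpha chain of the phagocyte complement receptor, had 10 and 12 reads against 115 and 106, a ratio of 23.9. All of these were separated by far more than the distance between replicates. Itgal, the alpha chain that pairs with Itgb2 on lymphocytes and monocytes, had 1 and 0 reads against 24 and 19, and its ratio of 102 had an interval of 17.4 to 4123. Adgre1, an adhesion receptor used as a macrophage marker, had 0 and 11 reads against 355 and 370 (ratio 157, 87.3 to 316). Its low-MYC replicates did not agree, since every low-MYC read was in replicate 2.

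Receptors for microbial and other ligands ranged from near 0 to clearly read in low-MYC cells. Clec4n, the receptor Dectin-2, had 0 and 1 reads against 164 and 141, with a ratio of 723 whose interval ran from 129 to 28660. Mrc1, the mannose receptor, had 37 and 45 reads against 887 and 859 (ratio 50.8, 40.7 to 64.1). Cd180, a Toll-like receptor homologue, had 2 reads in each low-MYC replicate and 87 reads in each high-MYC replicate, a ratio of 101. Pirb, an inhibitory immunoglobulin-like receptor, had 1 and 4 reads against 192 and 197 (ratio 185, 78.9 to 575), with values that were not whole and a related gene, Pira2, at 0.5 and 0 against 43.2 and 31.1 reads. Clec7a, the beta-glucan receptor Dectin-1, was the exception among the lectins. It had 15 and 17 reads against 16 and 18, so the read counts overlapped and its ratio of 2.54 (1.52 to 4.26) lay among those of most genes. Cd14, the co-receptor for lipopolysaccharide, had 128 and 171 reads against 339 and 290, and its ratio of 4.995 (4.35 to 5.75) lay just under 5. Laptm5, a lysosomal membrane protein of haematopoietic cells, had fewer low-MYC reads than Cd14, with 9 and 7 reads against 787 and 722 (ratio 225, 138 to 394).

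The MS4A genes, which encode 4-pass membrane proteins found on myeloid cells, included the member with the highest ratio. Ms4a7 had 0 and 2 reads against 364 and 351 (ratio 851, 235 to 7039). Ms4a6d had 2 and 0 reads against 296 and 297 (ratio 709, 195 to 5867). With so few low-MYC reads neither ratio is known closely. The related genes Ms4a6b and Ms4a6c, which were not members, had 0 reads in both low-MYC libraries, 28 and 40 reads, and 113.5 and 137.3 reads in high-MYC cells.

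The secreted and lysosomal defence genes included the member with the most reads in high-MYC cells. Lyz2, the lysozyme of macrophages, had 35 and 162 reads in low-MYC replicates 1 and 2 against 9200 and 8561 reads in high-MYC cells, a ratio of 214 (186 to 248). Its paralog Lyz1 had 3, 2, 3 and 2 reads. Mpeg1, a pore-forming protein of macrophages, had 4 and 16 reads against 615 and 621 (ratio 147, 95.01 to 242). For both, low-MYC replicate 2 was well above replicate 1, and both high-MYC libraries were far above either. Cd68, a lysosomal glycoprotein, differed from these in having 245 and 294 reads in low-MYC cells against 850 and 830, a ratio of 7.43 (6.74 to 8.20). Cd53, a tetraspanin of leukocytes, had 125 and 137 reads against 587 and 575 (ratio 10.6, 9.24 to 12.1). On values recomputed over exon length, which allow genes to be compared, the highest mean level in high-MYC cells was that of Lyz2 at 70.0, followed by Cd68 at 6.95, Cd53 at 3.47 and Laptm5 at 2.07. In low-MYC cells the order of the levels was another, with Cd68 at 0.935, Cd14 at 0.376, Cd53 at 0.328 and Lyz2 at 0.327.

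Chemoattractant receptors had some of the smallest ratios. Cx3cr1, the fractalkine receptor, had 11 and 14 reads against 23 in each high-MYC replicate (ratio 4.39, 2.64 to 7.46). The interval of the table for Cx3cr1 also spans Csrnp1, Gorasp1 and Xirp1 on the same strand. Ccr1, a receptor for inflammatory chemokines, had 29 and 36 reads against 90 and 105 (ratio 7.19, 5.41 to 9.68). C5ar1, the receptor for the complement fragment C5a, had 27 and 31 reads against 471 and 445, and was the highest of this group at 37.6-fold (28.8 to 49.9).

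Among the signalling genes, Vav1 and Lcp2 were almost without reads in low-MYC cells, while Fyb and Ptpn6 were not. Vav1, a guanine nucleotide exchange factor of haematopoietic cells, had 0 reads in both low-MYC libraries and 102 and 98 reads in high-MYC cells, which makes it at least 159-fold higher when 3 reads over the low-MYC group stand for 0. Lcp2, an adaptor of immune receptor signalling, had 0 and 2 reads against 64 and 52 (ratio 137, 37.2 to 1147). Fyb, an adaptor that links such signals to integrins, had 12.3 and 18.3 reads against 107 and 102 (ratio 16.2, 11.0 to 24.2). Ptpn6, a phosphatase that restrains these pathways, was the least changed of the group, with 18 and 35 reads against 99 and 102 (ratio 9.05, 6.66 to 12.5).

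The oxidase, the lipid mediator and the survival gene were each low in low-MYC cells. Cybb, the membrane subunit of the phagocyte oxidase, had 0 and 14 reads against 117 and 107 (ratio 38.0, 22.2 to 70.7). Ncf1, a cytosolic subunit of the same enzyme, had 5 and 6 reads against 172 and 168 (ratio 73.7, 40.7 to 149). Alox5ap, which presents arachidonic acid to lipoxygenase for leukotriene synthesis, had 0 and 5 reads against 112 in each high-MYC replicate (ratio 107, 45.1 to 332). Bcl2a1b, an anti-apoptotic BCL2 family gene with near-identical copies, had 0 and 1 reads against 105 and 91.4 (ratio 467, 82.9 to 18549).

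Among the cytoskeletal genes, Lcp1, the actin-bundling L-plastin, had 11 and 13 reads against 1020 and 1003 (ratio 201, 135 to 314), the second-highest number of high-MYC reads after Lyz2. Myo1f, a class I myosin, had 0 and 2 reads against 249 and 209 (ratio 543, 149 to 4494). Coro1a, a coronin of haematopoietic cells, had 35 and 49 reads against 110 and 82, a ratio of 5.40 (4.16 to 7.07). Aif1, an actin-binding protein widely used to stain macrophages, had only 1 read in each low-MYC library and 11 and 10 reads in high-MYC cells, with a ratio of 24.98 and an interval of 6.11 to 220. The least abundant members therefore had ratios that the depth does not fix well.

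**Figure D2:**
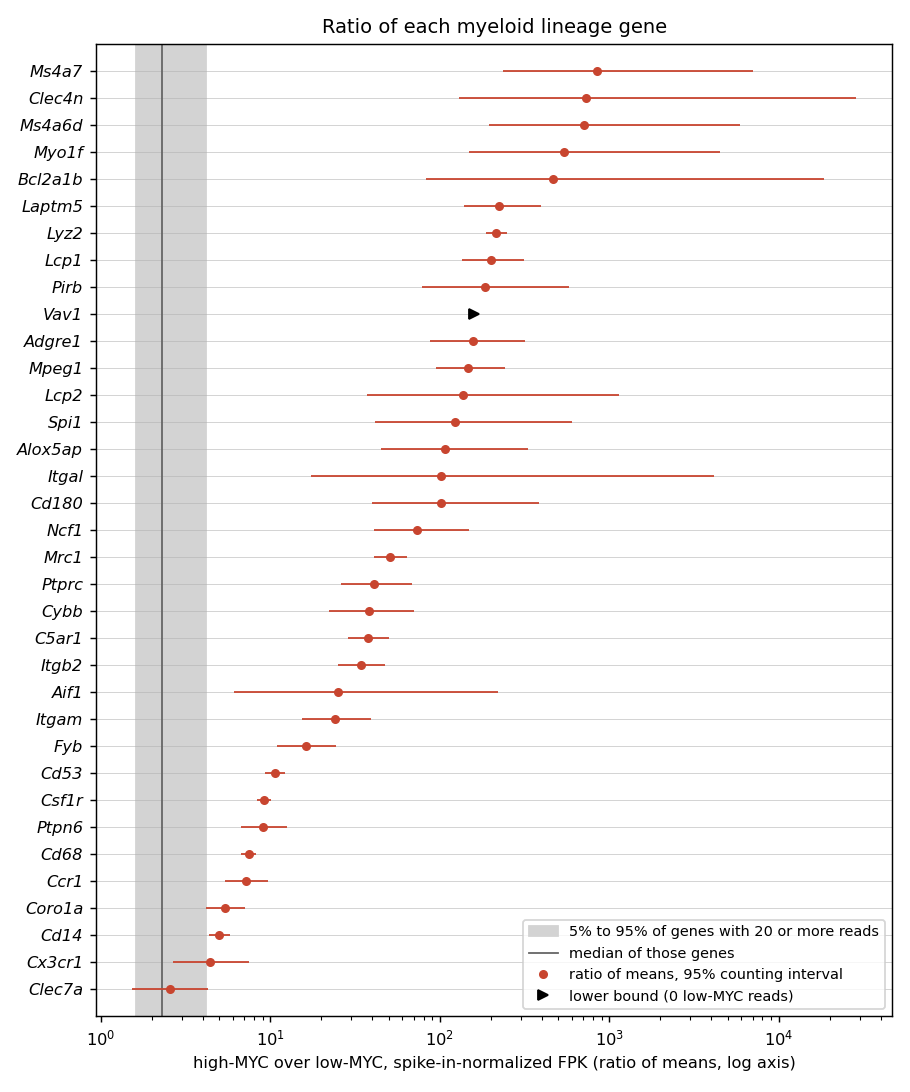
Ratio of mean spike-in-normalized FPK, high-MYC over low-MYC, for each member (log axis), with 95% counting intervals; the black triangle is the lower bound for Vav1. The grey band holds 5% to 95% of the genes with 20 or more reads around their median of 2.28, and only Clec7a has its ratio inside the band.

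Members just outside the 5-fold line were Cd14 at 4.995, Cx3cr1 at 4.39 and Clec7a at 2.54, and those just inside were Coro1a at 5.40, Ccr1 at 7.19 and Cd68 at 7.43. Summed over all members, 1026 and 1400 reads were recovered in the low-MYC libraries and 19329 and 18153 reads in the high-MYC libraries. This amounted to 10.9 and 14.5 RPM against 207 in each high-MYC replicate. The sum of the normalized FPK was 24.3 times as high in high-MYC cells, and 9.76 times as high without Lyz2. These values are divided by genomic span, so short genes weigh more in this sum. For recovered reads on the spike-in scale the ratio was 36.8, and 21.1 without Lyz2.

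The high-MYC replicates lay close together for nearly every member. Replicate 2 held 48.4% of all high-MYC reads, and its share of a member's reads had an interval that excluded this value for 1 member only, Itgb2 at 41.1%. The same count was not made over all genes for the high-MYC libraries, so it has no background. Among the members, the low-MYC replicates did not agree as closely. Replicate 2 held 50.7% of all low-MYC reads. For 6 of the 22 members with at least 10 low-MYC reads the interval of its share lay above that value, and for 0 it lay below. Among all genes with 10 to 600 low-MYC reads the interval lay above in 4.57%, and below in 345 of 6921. The 6 members were Lyz2 (82.2% of 197 reads, interval 76.2% to 87.3%), Mpeg1 (80.0% of 20), Adgre1 and Cybb (100% of 11 and of 14), Ptpn6 (66.0% of 53) and Cd14 (57.2% of 299). Among 12 genes of a further myeloid list with 10 to 600 low-MYC reads the interval lay above for 2, Trem2 (3 and 13 reads) and Marco (1 and 9), and below for 0, while Fcgr3 (9 and 5) and Nckap1l (13 and 10) had more reads in replicate 1. Adgre1, Cybb, Spi1 and 7 other members had 0 reads in low-MYC replicate 1, against 3 members in replicate 2. Without low-MYC replicate 2 the ratio of the summed values was 28.7 and those of Lyz2 and Mpeg1 were 605 and 369. Without low-MYC replicate 1 they were 21.0, 130 and 92.1. What separated these technical replicates was not tested.

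**Figure D3:**
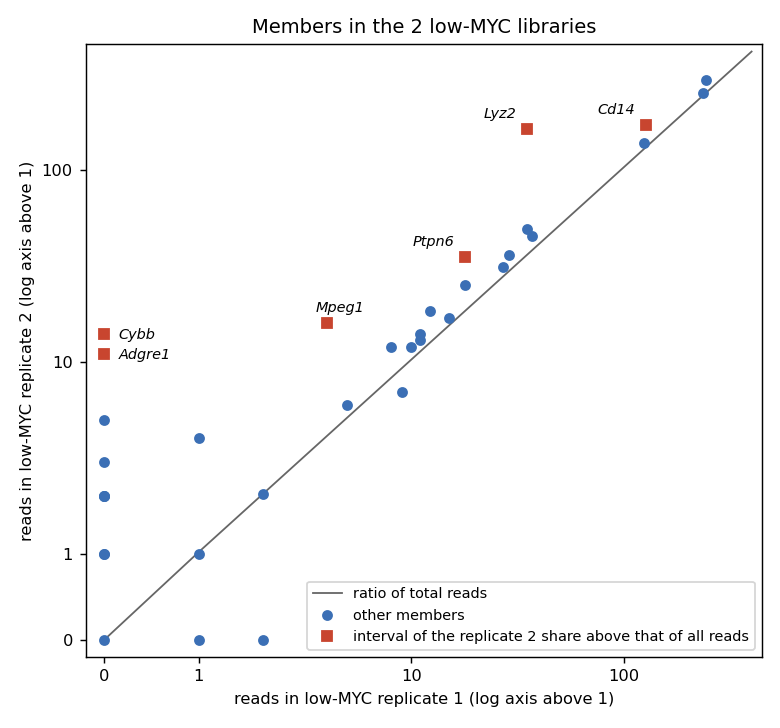
Reads of each member in low-MYC replicate 1 (x axis) and replicate 2 (y axis), both on log axes above 1, with the line expected from the total reads of the libraries. Red squares are the 6 members whose replicate 2 share has an interval above 50.7%; Lyz2 lies at 35 and 162 reads.

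Other genes of myeloid biology were taken as a list of 42 that was put together with earlier results of these data known. A gene with few low-MYC reads reaches 20 reads over the 4 libraries only through its high-MYC reads. A high ratio of such a gene was thus largely fixed in advance. Marco, Lyz1 and Cd52 fell short of 20 reads, with 10, 5 and 3 low-MYC reads and 4, 5 and 7 high-MYC reads. Of the 39 with at least 20 reads, 23 had a ratio of at least 5, beside the 3.28% of all genes, and the median was 31.1. These 23 had 0 to 80 reads over both low-MYC libraries. Signalling adaptors of immune receptors were among them, with Tyrobp at 0 and 3 reads against 253 and 235, and Fcer1g at 1 in each against 170 and 125. So were the complement genes C1qa (0 and 2 against 349 and 264) and C1qc (4 in each against 414 and 358), the scavenger receptor Msr1 (8 and 6 against 605 and 574), the cysteine protease gene Ctss (7 and 10 against 483 and 487) and the factor Irf8 (2 in each against 51 and 64). The other 16 had ratios of 1.80 to 4.07, around the 2.28 of all genes, and 49 to 709191 low-MYC reads. They included Runx1 and Cbfb, which encode partners in a factor used far beyond blood, at 2.08 and 2.39, the oxidase subunit Cyba at 2.31, the kinase genes Lyn at 2.04 and Syk at 3.04, and Cebpa and Cebpb at 3.16 and 2.78. The oxidase was thus split, with Cybb, Ncf1 and Ncf4 (183-fold) on one side and Cyba, which many cells express, on the other.

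**Figure D4:**
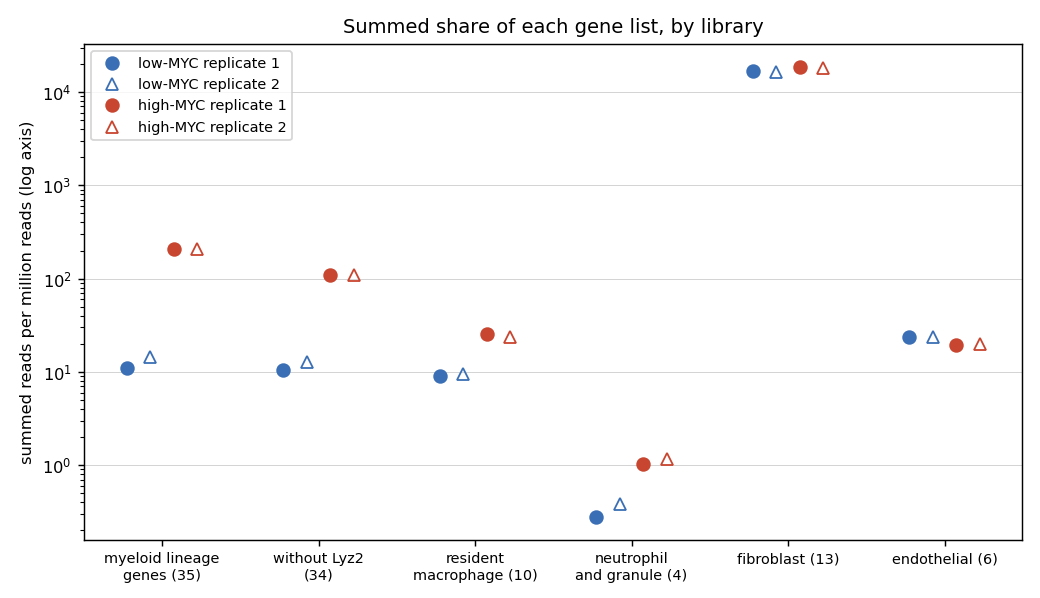
Summed RPM of the members, of the members without Lyz2 and of marker lists in each library (log axis; number of genes in the table in brackets; blue low-MYC, red high-MYC, circles replicate 1, triangles replicate 2). The members go from 10.9 and 14.5 to 207 in each high-MYC replicate, while the fibroblast markers lie between 16427 and 18774 in all 4 libraries.

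Markers of particular cell types moved with the members to different degrees, and their part in the result was not tested. The limit of 20 reads applies here too, so markers with few low-MYC reads were counted only where their high-MYC reads sufficed. Of 10 resident macrophage markers in the table, 9 had at least 20 reads and 6 of these a ratio of at least 5 (C1qa, C1qb, C1qc, Fcgr1, Folr2 and Trem2), with 9.15 and 9.44 RPM in low-MYC and 25.7 and 23.7 in high-MYC cells for the list. Marco was at 1 and 9 reads against 3 and 1. Neutrophil and granule markers were near 0, with 0.277 and 0.384 against 1.03 and 1.16 RPM for 4 genes, but 2 of the 3 with at least 20 reads had a ratio of at least 5 (Mmp8 at 16.9 and S100a8 at 7.26). The ratio of read shares was 3.31 for this list and 2.66 for the resident macrophage list. The lymphocyte list was represented by Il7r alone, at 0 reads in both low-MYC libraries and 14 and 16 in high-MYC cells. Of 13 fibroblast markers, 1 had a ratio of at least 5 (Lum at 6.01), and the median was 2.73.

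Of 13 genes for ligands of myeloid receptors, 5 had a ratio of at least 5, and the median was 2.85. Csf1, which encodes the ligand of the CSF1 receptor, had 196390 and 199172 low-MYC reads against 169490 and 158538, a ratio of 1.97 that became 0.870 as a ratio of read shares. Cx3cl1, the ligand of the fractalkine receptor, had a ratio of 1.80, or 0.792 for read shares. Of the chemokine genes, Ccl2 had 2129 and 1962 reads against 7257 and 6010 (ratio 7.70), Ccl7 had 987 and 808 against 4227 and 3500 (ratio 10.2), Ccl3 had 0 and 1 against 58 and 45, and Ccl5 had 8 and 14 against 19 and 8 (ratio 2.85). The complement gene C3 had 241 and 178 reads against 914 and 724, a ratio of 9.27.

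Chromatin at the start sites was then described, a measure that the choice of members did not use. In unsorted MEFs, 5 of the 35 members (14.3%) had a listed TACh-seq read within 1 kb of the start site, against 60.3% of 19753 genes. Genes with few reads in low-MYC cells are a closer comparison. Of the 5190 genes with at most 50 low-MYC reads, 25.01% had a read near the start, against 2 of 25 such members. Of the 14563 genes with more, 72.9% had one, against 3 of 10 such members. Cd68 had 70 reads, Lcp1 64, Itgb2 37, Cd53 24 and Ptpn6 22, where the median over genes with any read was 152. Lcp1 shares its window with Lrrc63, whose start lies 220 bp away, so these reads belong to no single gene. Cd68, Cd53 and Ptpn6 each had over 50 low-MYC reads, and their ratios were 7.43, 10.6 and 9.05. Lyz2, Mpeg1, Spi1, Laptm5 and the remaining members had 0, and the nearest read to the start of Lyz2 lay 56790 bp away. For Csf1r the RefSeq start (61105572) lies apart from the start used (61100598). It had 5 reads within 1 kb of the RefSeq start. Since the list holds reads in limited regions only, a member with 0 had no listed read, which does not show closed chromatin. In the gene body, 11 members (31.4%) had reads, against 68.7% of all genes. Of the members with at most 50 low-MYC reads, 6 of 25 had one, against 33.7% of such genes. Of those with more, 5 of 10 had one, against 81.2%. The 11 included Fyb with 736, Mrc1 with 248, Itgb2 with 218 and Csf1r with 198. Cx3cr1 had 1454, but its interval holds other genes.

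**Figure D5:**
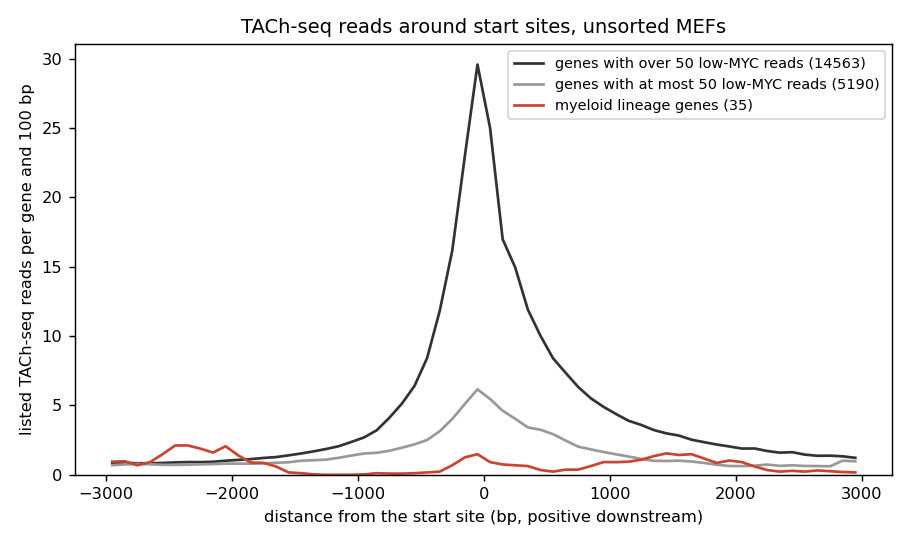
Mean number of listed TACh-seq reads per gene in 100-bp bins around the start site of members and of genes with at most 50 or more than 50 low-MYC reads. At the bin just upstream of the start the means are 1.49, 6.16 and 29.6 reads.

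The FUBP1 peak list used here held 166 peaks, all on chromosome 15, and binding elsewhere in the genome is not analysed here. Fyb is the single member on that chromosome. None of the peaks overlapped Fyb, and the nearest began 97488 bp beyond its end, so this list bears on 1 member only.

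RefSeq gave promoter windows for 26 of the 35 members, 32 windows in all. Itgb2, Cd14, Csf1r, Alox5ap, Clec4n, Spi1, Adgre1, Itgal and Ms4a6d are the other 9. Of the 32 windows, 4 (12.5%) held GAGGAAGT on either strand, against 3.2% of 32851 promoters, and these were the windows of Bcl2a1b, Cd53, Pirb and Vav1. The shorter GAGGAA was in 18 windows (56.3%, 17 genes), against 28.3% of all promoters. A composite ETS-IRF element was in 4 windows against 2.72% of promoters, in Cd68, Clec7a and Cybb. The element TTNNGNAA of the C/EBP family was in 43.8% against 40.7%, the TATA box TATAAA in 9.38% against 13.6%, and the E-box CACGTG that MYC binds in 0 of 32 against 7.15%. Overlaps between these motifs were not removed, and windows of 1 gene overlap. Member windows were poorer in CpG, with a median of 4 CpG against 7 and 71.9% against 43.6% of windows at 5 or fewer, and a median GC content of 45.7% against 52.7%. Of the windows printed here, that of Lcp1 had 19 CpG and that of Vav1 11, while Lyz2 and Pirb had 1 each. These matches describe letters in the windows and no test was made of them.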

How the data were processed

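RNA-seq of sorted MEFs (4 libraries), TACh-seq (4 samples, 1 list) and FUBP1 ChIP-seq (1 sample) were taken from the processed files and grouped by the labels. The members and gene lists were chosen with earlier results of these data known. The deposited signal values are spike-in-normalized FPK: the authors trimmed reads, aligned them with TopHat (mm10), quantified them in Partek and divided by length and by a spike-in score. Versions are not given in the sources used here. The methods describe transcript length, whereas the values are whole multiples of 1 read over the genomic span, so reads were recovered as value times span divided by that step, without being used in a count model. Partek splits shared reads, so paralogs and overlapping genes are uncertain. The total of recovered reads per library (87681593 to 96323181) sets the counting error.

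Ratios are of group means without pseudocount. The background fit was limma 3.58.1 (R 4.3.3) on log2(value + 0.1), eBayes with trend, on genes averaging 0.1 or more, Benjamini-Hochberg adjusted; replicates are technical, so it compares these libraries. Read recovery, intervals and the fit were tested on simulated data. The TACh-seq list that the authors deposited gives read positions and a mapping score (Bowtie2, at most 42) for 4881417 reads, and the ChIP-seq list positions of SICER peaks. Start sites are gene ends of the table, which match GENCODE M21 for 19478 genes. Every member is named, as fixed in the design. Python 3.11.15, pandas 2.3.3 and scipy 1.17.1 were used.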

Additional observations from a re-analysis of the deposited data

How the results depend on the processing

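The ratio of every member stayed above 1 under each alternative computed for it. For most alternatives this was fixed in advance. A constant added to both means cannot move a ratio across 1. Leaving out a library cannot either where both high-MYC values lie above both low-MYC values, as for all 35 members. Scaling libraries to equal medians and shares of reads could have done so, and Clec7a was then at 1.098 and 1.12. The share of all genes with a ratio of means of at least 5 was not recounted under any alternative. Over the 11870 genes of the limma fit the scaling set the direction. Their median log2 fold went from 1.03 to -0.03 when libraries were scaled to equal medians. As shares of reads the ratios of Myc, Csf1 and Cx3cl1 were 0.914, 0.870 and 0.792. Members have small values over the genomic span, so a constant added to both means shrank their ratios: with 0.01 and with 0.1 added, the median member ratio was 5.50 and 1.85, the number of members at 5 or more 19 and 3, and the ratio of the summed levels 19.1 and 6.99. With that scaling, the median member ratio was 31.8 and the summed ratio 10.5, and limma called 68 genes higher and 9 lower. Among alternatives chosen after seeing the data, the median ratio was 32.5 for shares of reads and 29.0 for members with over 10 low-MYC reads. The summed ratio was 36.8 from recovered reads (21.1 without Lyz2) and 9.76 from normalized FPK without Lyz2. Leaving out each library in turn gave a median ratio of 46.2 to 77.4, lowest without low-MYC replicate 1, a summed ratio of 21.0 to 28.7, 31 to 33 members at 5 or more, 5683 to 7374 genes called higher and 0 to 1 lower; the library left alone was assumed to vary like the others.

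In limma, 6540 genes were higher and 0 lower. The number higher was 10076 with a pseudocount of 0.01, 1448 with a pseudocount of 1, 11530 without a fold threshold (3 lower) and 34 at 5-fold. On recovered reads, added after seeing the data, it was 13917 (5 lower), and 14047 (9 lower) with the replicate block. The members were chosen on this contrast and partly kept by the filter through their high-MYC values. All 10 members that passed it were called, beside 55.1% of the 11870 genes tested, which is no evidence about them. The number of members called was 4 with a pseudocount of 1, 3 with a minimum mean of 1 and 3 at 5-fold. It was 35 on recovered reads (beside 13917 of 17915 genes), also with the replicate block. The replicate block on the deposited values gave 6556 genes higher; same-numbered replicates are technical, with a correlation of 0.081 between their deviations, and share only a number. The shorter motif raised the count of members from 4 to 17. The number of members with accessible starts was 5 or 6 under every setting. Few low-MYC reads leave some ratios with wide intervals: 10 members had 3 or fewer and 13 had fewer than 10.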

Other observations

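A few genes outside the members had patterns of their own. Pf4, a chemokine gene of megakaryocytes and some macrophages, had 0 and 1 reads in low-MYC cells and 96 and 78 reads in high-MYC cells. Sox10, a factor of neural crest and glial cells, went the other way, with 23 and 20 against 2 and 5 reads, a ratio of 0.399 on normalized FPK. Emcn, an endothelial gene, had 23 and 15 against 0 and 6 reads. Krt8, a keratin of simple epithelia, had 2 and 4 against 42.6 and 28.3 reads.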
